A study of Homo sapiens with 19 samples.

Results

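The genes followed here are 10 genes of the circadian clock, the transcriptional oscillator that gives cells a daily rhythm: CLOCK, ARNTL (also named BMAL1), PER1, PER2, PER3, CRY1, CRY2, BHLHE40, BHLHE41 and DBP. They were picked by symbol from a table of 23441 genes with RNA-seq counts, and all 10 were among the 14225 genes with enough counts to be tested in edgeR. Their RNA was followed over 9 RNA-seq libraries, and the peaks near their transcription start sites over 7 lists of ChIP-seq peaks. The cells were 786-O, an established clear cell renal carcinoma line in which VHL, the ubiquitin ligase subunit that marks HIF-α proteins for destruction, is defective. All pools, controls included, therefore shared the loss of VHL and the endogenous HIF-2α that accumulates without it. Pools were transduced with lentivirus from the bicistronic pRRL vector, which also encodes EGFP. They carried the empty vector (pRRL, control cells), HIF-1α (pRRL-HIF-1a, HIF-1α re-expressing cells) or HIF-2α (pRRL-HIF-2a, HIF-2α overexpressing cells). Each pool gave 3 RNA-seq libraries, numbered 1 to 3, and 1 ChIP-seq library for each antiserum. HIF-2α and HIF-1β were immunoprecipitated in all 3 pools and HIF-1α in the re-expressing cells. Nothing in the labels or methods says that the 3 libraries of a pool came from separate transductions or cultures, so that p-values measure only the spread between these libraries, which may be technical.

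In the clock loop, CLOCK and ARNTL form a heterodimer of basic helix-loop-helix PAS proteins that binds E-box sequences and activates the PER and CRY genes, whose products return to the nucleus and repress it. BHLHE40 and BHLHE41 (DEC1 and DEC2) repress through the same E-boxes, and DBP is a clock-driven activator that binds D-box sequences in output genes and in PER promoters. HIF-1α, HIF-2α and HIF-1β belong to the same PAS family as CLOCK and ARNTL, and BHLHE40 and BHLHE41 are known hypoxia-inducible genes.

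Of these genes, PER1 had more RNA and CRY1 less in HIF-1α re-expressing cells than in HIF-2α overexpressing cells. The differences were 2.12 ± 0.41 and -1.01 ± 0.24 on the log2 scale (± standard error). The libraries of these pools did not overlap for either gene, nor for 10.4% of all genes that were higher and 8.82% that were lower. In edgeR, both calls were made in a fit that included the replicate number of the libraries, where 5.93% of all genes were called. Neither was made in its fit without that number (0.0492%). DESeq2, fitted without that number, made both calls (4.44% of all genes). No clock gene passed edgeR's test against control cells in either fit, where 7.96% of all genes were called with HIF-1α and 0.267% with HIF-2α in the fit with that number. BHLHE41 had the largest estimate among them in HIF-1α re-expressing cells against control cells, 1.77 ± 0.52, carried by 2 of its 3 libraries. On chromatin, BHLHE40 and BHLHE41 were the members with a HIF-2α peak within 10 kb of a start site in all 3 pools (4.21% to 14.5% of all genes had one in these lists). For BHLHE41 in control cells this peak was not at the start site but 9.261 kb downstream of one, past the 3′ end and nearer to SSPN. CRY1 and CRY2 had no peak of any antiserum within 10 kb.

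The libraries held 27852754 to 54287621 counts. Levels are given as CPM, the counts relative to the TMM-scaled total of their library, and differences as log2 fold changes from edgeR's quasi-likelihood test, with p-values adjusted by Benjamini-Hochberg over all 14225 genes and a threshold of 0.05. HIF1A, the gene of HIF-1α, had 171, 1682 and 473 CPM in the re-expressing libraries against 30.4, 36.7 and 152 CPM in control libraries 1, 2 and 3, so that re-expressing library 1 was close to control library 3. Reads of the virus and of the endogenous gene cannot be told apart in these counts. The authors report that 786-O cells make no wild-type HIF-1α, only truncated or fused transcripts that they predict give no active protein. The level of active HIF-1α behind the counts of re-expressing library 1 and control library 3 was not tested. EPAS1, the gene of HIF-2α, had 946, 3244 and 880 CPM in the overexpressing libraries, 456, 224 and 162 CPM in control libraries and 575, 627 and 397 CPM in HIF-1α re-expressing libraries, above the control library of the same number in 3 of 3 pairs. HIF1A in HIF-2α overexpressing libraries was at 15.3, 30.4 and 17.5 CPM, at or below the lowest control library. The part of these levels in the comparison of the HIF pools was not tested. The 6 markers of the renal line summed to 4780 to 7010 CPM in each library. Most of this was VIM, at 3963 to 5671 CPM, with KRT8 at 289 to 603 CPM and PAX8 at 175 to 364 CPM. The 4 leukocyte markers summed to at most 0.726 CPM with CD3E at 0 throughout, and the 4 endothelial markers to at most 1.27 CPM. The 4 fibroblast markers summed to 0.722 to 12.3 CPM, mostly LUM. Libraries with the same replicate number deviated together from the means of their pools (correlation across genes of 0.348 to 0.652 for the 9 same-number pairs, and -0.478 to 0.0281 for the 18 others). Deviations from a pool mean cancel within the pool, so the low values of the others follow in part from the same-number ones. The fit with this number as a term is called the replicate block. Both comparisons with control cells use the same 3 control libraries. In RNA from bulk cells, fewer cells with a transcript and less of it per cell cannot be told apart.

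Per kilobase of annotated exon, the scale on which levels of different genes can be set side by side, BHLHE40 stood first in every pool, at 88.4 ± 15.8 CPM per kb in control cells (SD, n = 3), 114 ± 41.1 in HIF-1α re-expressing cells and 118 ± 39.5 in HIF-2α overexpressing cells. In control cells BHLHE41 followed at 12.9 ± 4.35 CPM per kb, then CRY1 at 8.27 ± 2.48 and CLOCK at 6.12 ± 1.48, and these neighbours overlapped in their libraries. PER3 lay below them at 3.15 ± 0.403 CPM per kb, with no overlap with CLOCK above or ARNTL below. ARNTL, CRY2, PER2 and PER1 formed a run of overlapping genes from 1.69 to 0.917 CPM per kb. DBP was lowest, at 0.135 ± 0.0101 CPM per kb, and did not overlap PER1. The order differed in the HIF-1α re-expressing cells, where BHLHE41 reached 44 ± 25.2 CPM per kb, CLOCK stood above CRY1 and PER1 followed PER3. There, BHLHE40, BHLHE41 and DBP overlapped no neighbour, PER3 did not overlap PER1, and the other neighbours overlapped. In HIF-2α overexpressing cells PER1 stood lowest but for DBP, at 0.451 ± 0.0882 CPM per kb.

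**Figure D1:**
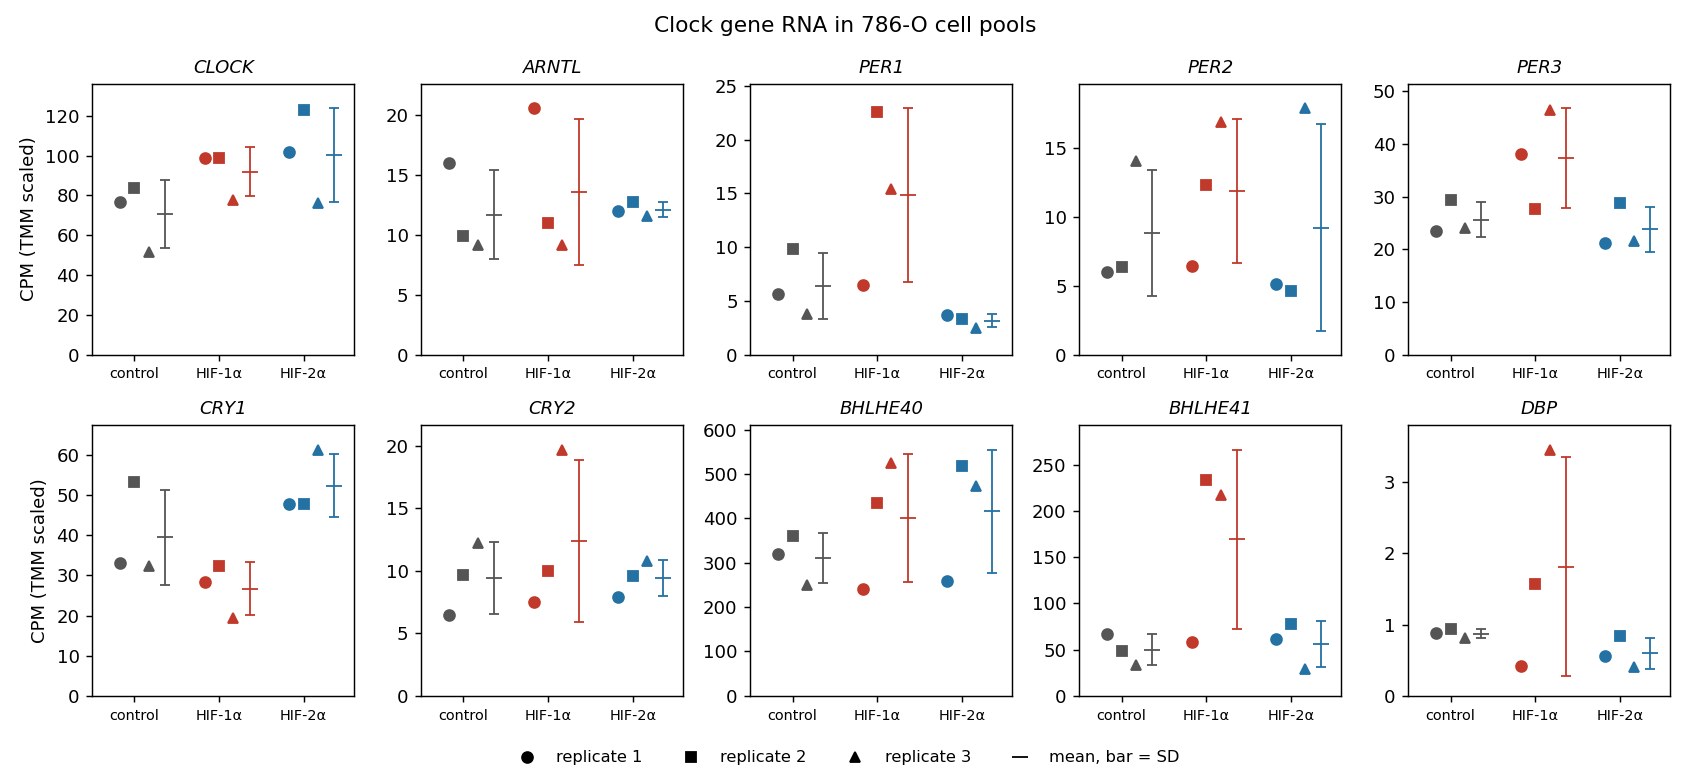
RNA of the 10 clock genes in each library, in TMM-scaled CPM on an axis from 0 (vertical) for control, HIF-1α re-expressing and HIF-2α overexpressing cells (horizontal). Marker shapes give the replicate number, and the bar beside each group gives its mean and SD over 3 libraries. PER1 lay at 6.45 to 22.6 CPM with HIF-1α and at 2.47 to 3.66 CPM with HIF-2α, and BHLHE41 reached 234 and 217 CPM in 2 of the 3 HIF-1α libraries.

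A peak was assigned to a gene where its midpoint lay within 10 kb of any annotated start site of that gene. The 7 lists hold 1350 to 6572 peaks each, all 2500 bp wide, with no score, so that a gene has a peak or not and no strength can be compared. HIF-1β peaks lay near 6 of the 10 clock genes in control cells (25.7% of 13769 tested genes placed on the genome had such a peak), near 8 in HIF-1α re-expressing cells (40.8%) and near 3 in HIF-2α overexpressing cells (16.2%). HIF-1α peaks lay near 5 of them (34.6%). HIF-2α peaks lay near 2, BHLHE40 and BHLHE41, in control cells (5.32%), in HIF-1α re-expressing cells (4.21%) and in HIF-2α overexpressing cells (14.5%). The 6 HIF-1α peaks near clock genes all shared at least 1 base with HIF-1β peaks from the re-expressing cells, and 5 of the 6 shared at least 50% of their length. No difference between these lists was tested, since each antiserum and pool has 1 library.

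**Figure D2:**
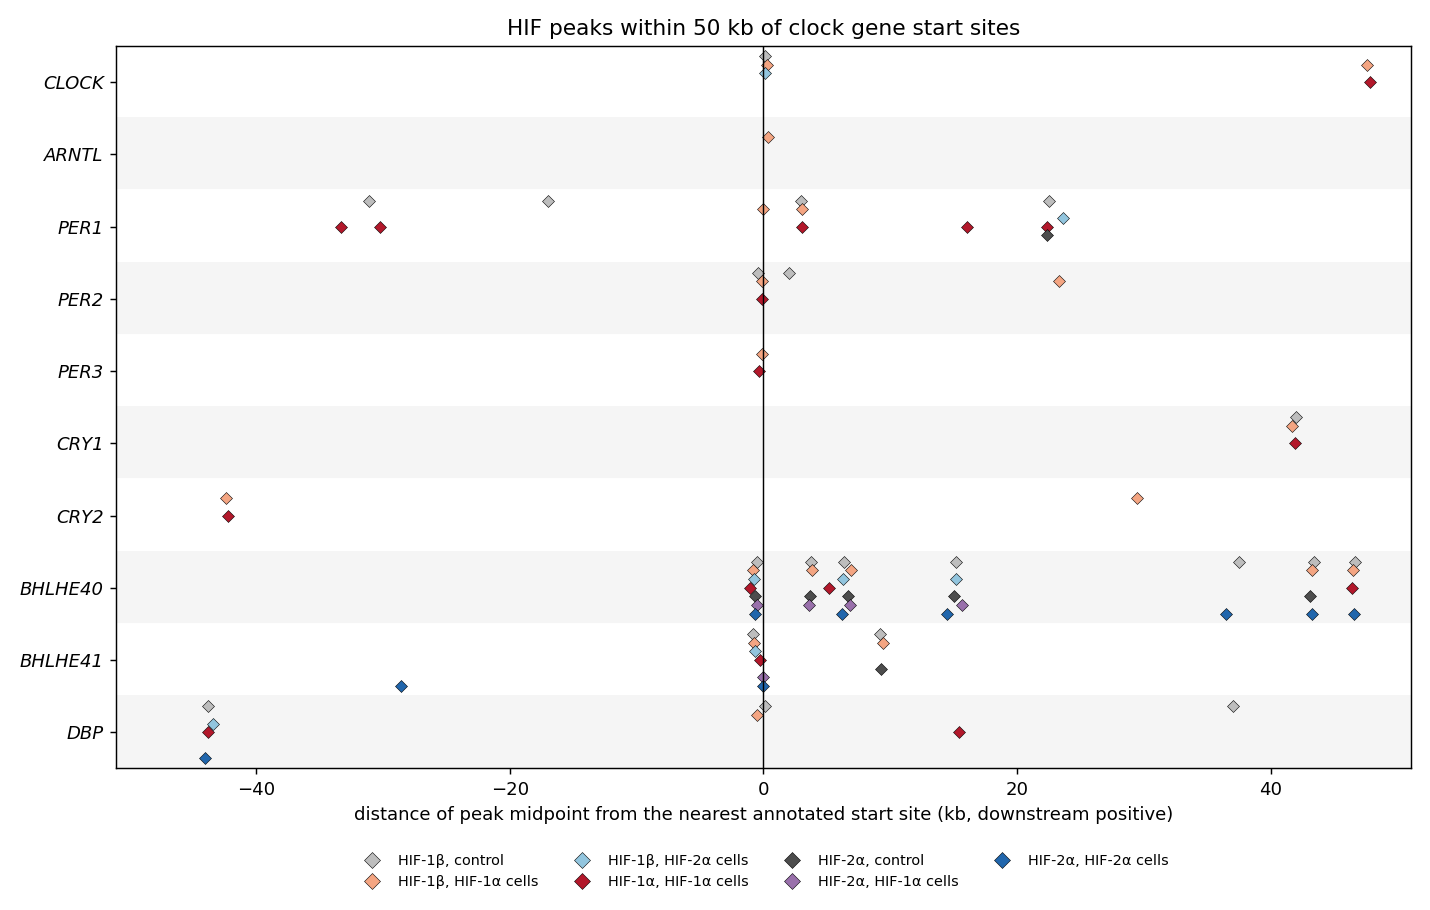
Midpoints of the peaks within 50 kb of the clock genes, as the distance in kb from the nearest annotated start site of the gene (horizontal, downstream positive), with a row per gene and a colour per antiserum and pool. BHLHE40 had 33 peaks in this range over the 7 lists and ARNTL 1, and CRY1 and CRY2 had none within 10 kb.

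Sequences at peaks are printed for PER1, PER2, PER3, BHLHE40 and BHLHE41, the members with a HIF-1α peak within 10 kb of a start site. They let the HIF motifs be seen beside the clock's own elements. Not every site of these genes is shown, and no site of CLOCK, ARNTL, CRY1, CRY2 or DBP is. Motifs were searched on both strands as exact letters: the core of the hypoxia response element (HRE) as ACGTG or GCGTG, the E-box as CACGTG, the D-box as TTATGTAA or TTACGTAA and the AP-1 site as TGACTCA or TGAGTCA. The E-box holds an HRE core on each strand, so that every E-box also counts as 2 HRE cores. Within 150 bp of the midpoint, an HRE core was present at 65.4% of the 5147 HIF-1α peaks, an E-box at 8.86% and a D-box at 0.466%. In the RefSeq table of promoters (GRCh38.p14, 250 bases before to 50 after a start site), all 10 genes had an entry. An E-box was present in the promoters of PER1, BHLHE40 and BHLHE41, against 7.26% of all 35116 promoters, and a D-box in those of PER2 and PER3, against 1.01%. The HRE core was common, present in 48.4% of all promoters. These matches describe letters in a window and not occupied sites. In the printed sequences, taken from GRCh37 and written 5′ to 3′ on the strand of the gene, capitals mark HRE cores, D-boxes and AP-1 sites, and annotated UTR bases were left out.

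CLOCK and ARNTL, the activator pair, did not pass the test in any comparison. CLOCK (chr4:56294070-56413076, minus strand) had 76.5, 84 and 51.4 CPM in control libraries 1 to 3, 99.1, 98.8 and 77.7 CPM with HIF-1α and 102, 123 and 76.1 CPM with HIF-2α. Each virus library was above the control library of its own number, but the groups overlapped, because library 3 was the lowest in all 3 pools. Against control cells the log2 fold change of CLOCK was 0.38 ± 0.25 with HIF-1α (edgeR adjusted p = 0.417) and 0.51 ± 0.25 with HIF-2α (adjusted p = 0.842), and with the replicate block the adjusted p values were 0.114 and 0.224. ARNTL (chr11:13298199-13408813, plus strand) had 16, 9.96 and 9.15 CPM in control libraries, 20.6, 11 and 9.2 CPM with HIF-1α and 12, 12.8 and 11.6 CPM with HIF-2α. The pools overlapped fully, and library 1 was highest in the first 2 of these pools. Its log2 fold changes were 0.22 ± 0.35 with HIF-1α and 0.05 ± 0.35 with HIF-2α (edgeR adjusted p = 0.763 and 0.987). HIF-1β peaks in all 3 pools lay 0.099 to 0.251 kb from a CLOCK start site, with no HIF-1α or HIF-2α peak within 10 kb. ARNTL had a single peak within 50 kb, of HIF-1β in HIF-1α re-expressing cells, 0.327 kb downstream of a start site in an intron.

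PER1 (chr17:8043790-8059824, minus strand), a repressor of the CLOCK and ARNTL dimer, showed the widest separation between the viruses. It had 5.67, 9.79 and 3.8 CPM in control libraries (219, 344 and 146 counts), 6.45, 22.6 and 15.4 CPM with HIF-1α (263, 892 and 828 counts) and 3.66, 3.35 and 2.47 CPM with HIF-2α (152, 96 and 96 counts). Every HIF-2α library was below every control library, and every HIF-1α library was above every HIF-2α library, whereas HIF-1α and control libraries overlapped. Between HIF-1α and HIF-2α cells, the ratios within replicate numbers 1, 2 and 3 were 1.76, 6.74 and 6.25. The log2 fold change was 2.23 ± 0.50 without the block (edgeR adjusted p = 0.098) and 2.12 ± 0.41 with it (adjusted p = 0.0197), and DESeq2 gave 2.21 (adjusted p = 0.000621). With the block and without replicate 2 or 3 it was no longer past the threshold, at 1.82 (edgeR adjusted p = 0.121) and 1.79 (adjusted p = 0.0998). Against control cells, PER1 stood at 1.21 ± 0.48 with HIF-1α (edgeR adjusted p = 0.228, and 0.0772 with the block) and at -1.02 ± 0.49 with HIF-2α (adjusted p = 0.837, and 0.332 with the block). Of all genes, 5.19% had every HIF-2α library below every control library, and 10.4% had every HIF-1α library above every HIF-2α library.

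The PER1 peaks differed in position from those of the other PER genes. A HIF-1β peak of HIF-1α re-expressing cells was centred on the 5′ start site, and the stretch upstream of it, shown because it holds the promoter's E-box, was chr17:8059825-8059974. The HIF-1α peak lay past the 3′ end of the gene, 3.069 kb from an internal start site and 17.4 kb from the 5′ one, with HIF-1β peaks of the same cells and of control cells at the same place. The sequence at its centre, chr17:8042315-8042614, is shown because it is the HIF-1α site nearest to PER1. It held 1 HRE core in 300 bp, while the 5′ stretch of 150 bp held 3, of which the E-box accounts for 2. The full window at the 5′ start site, with the UTR bases left out here, held 6 HRE cores. The other PER1 peaks within 50 kb lay nearer to other genes, among them ALOXE3, HES7, TMEM107 and BORCS6.
PER1 upstream of the 5′ start site: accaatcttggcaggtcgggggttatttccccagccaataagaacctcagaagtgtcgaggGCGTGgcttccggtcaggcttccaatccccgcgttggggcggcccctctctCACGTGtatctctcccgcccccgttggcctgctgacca
PER1 3′ site: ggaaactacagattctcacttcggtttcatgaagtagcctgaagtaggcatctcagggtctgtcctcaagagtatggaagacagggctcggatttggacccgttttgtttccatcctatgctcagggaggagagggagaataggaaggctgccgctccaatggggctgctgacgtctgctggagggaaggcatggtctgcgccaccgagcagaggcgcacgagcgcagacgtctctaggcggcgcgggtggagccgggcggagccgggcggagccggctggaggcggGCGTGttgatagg

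PER2 and PER3, the other PER repressors, did not pass the test in any comparison. PER2 (chr2:239152685-239198743, minus strand) had 6.03, 6.37 and 14.1 CPM in control libraries, 6.45, 12.3 and 16.9 CPM with HIF-1α and 5.13, 4.61 and 17.9 CPM with HIF-2α. Library 3 was the highest in each pool, and the pools overlapped. PER3 (chr1:7844351-7905237, plus strand) had 23.5, 29.4 and 24 CPM in control libraries, 38, 27.6 and 46.4 CPM with HIF-1α and 21.1, 28.7 and 21.5 CPM with HIF-2α. With HIF-1α, libraries 1 and 3 were above all of the others and library 2 was not. PER3 had a log2 fold change of 0.54 ± 0.25 between HIF-1α and control cells (edgeR adjusted p = 0.263, and 0.144 with the block) and 0.65 ± 0.25 between HIF-1α and HIF-2α cells (adjusted p = 0.289, and 0.138 with the block). For PER2 the log2 fold change against control cells was 0.42 ± 0.59 with HIF-1α and 0.06 ± 0.59 with HIF-2α (edgeR adjusted p = 0.717 and 0.991).

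Both genes had a HIF-1α peak and a HIF-1β peak of HIF-1α re-expressing cells at a start site. At PER2 these lay 0.081 and 0.093 kb upstream, and control cells had a HIF-1β peak at the same site. At PER3 they lay 0.314 and 0.115 kb upstream, and no other list had a peak within 50 kb. The windows are shown because each holds a D-box, the element bound by DBP, beside the HIF-1α peak. The PER2 stretch, chr2:239197468-239197710, held 1 D-box and no HRE core, the HRE core of the full window lying in the part left out. The PER3 stretch, chr1:7844087-7844350, held 1 D-box and 1 of the 2 HRE cores of its full window. The centre of the HIF-1α peak lies just upstream of this stretch.
PER2 start site: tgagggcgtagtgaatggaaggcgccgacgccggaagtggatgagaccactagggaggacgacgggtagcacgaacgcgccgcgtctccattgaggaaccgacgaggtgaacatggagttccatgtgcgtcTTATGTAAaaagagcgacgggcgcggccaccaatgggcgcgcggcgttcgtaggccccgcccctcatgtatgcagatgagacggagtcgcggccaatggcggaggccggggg
PER3 start site: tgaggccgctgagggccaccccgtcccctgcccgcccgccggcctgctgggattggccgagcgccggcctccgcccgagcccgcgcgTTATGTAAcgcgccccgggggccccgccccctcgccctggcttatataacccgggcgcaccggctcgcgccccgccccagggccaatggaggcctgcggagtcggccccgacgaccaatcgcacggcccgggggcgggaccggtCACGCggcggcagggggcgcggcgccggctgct

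CRY1 and CRY2 encode the partners of the PER proteins in repression. CRY1 (chr12:107385142-107487327, minus strand) had 33, 53.2 and 32.4 CPM in control libraries, 28.3, 32.4 and 19.4 CPM with HIF-1α and 47.8, 47.9 and 61.4 CPM with HIF-2α. All 3 HIF-1α libraries lay below all 3 HIF-2α libraries, as for 8.82% of all genes, while control libraries overlapped both. Within replicate numbers 1, 2 and 3 the HIF-1α level was 0.592, 0.676 and 0.317 of the HIF-2α level. Between these pools CRY1 had a log2 fold change of -0.97 ± 0.27 without the block (edgeR adjusted p = 0.165) and -1.01 ± 0.24 with it (adjusted p = 0.045), and DESeq2 gave -0.99 (adjusted p = 0.0389). With the block, leaving out replicate 1, 2 or 3 ended the call each time, at -1.16, -1.21 and -0.67 (edgeR adjusted p = 0.104, 0.0827 and 0.22). Against control cells CRY1 stood at -0.57 ± 0.27 with HIF-1α and 0.41 ± 0.27 with HIF-2α (edgeR adjusted p = 0.284 and 0.842, and 0.144 and 0.409 with the block). It was below control cells in 3 of 3 pairs with HIF-1α, and above them in 2 of 3 with HIF-2α.

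CRY2 (chr11:45868669-45904799, plus strand) had 6.44, 9.67 and 12.2 CPM in control libraries, 7.48, 10 and 19.7 CPM with HIF-1α and 7.94, 9.56 and 10.8 CPM with HIF-2α. The pools overlapped fully, and library 3 was the highest in each. The log2 fold change was 0.39 ± 0.39 with HIF-1α and 0.00 ± 0.39 with HIF-2α against control cells (edgeR adjusted p = 0.599 and 0.999). The nearest peaks to CRY1, of HIF-1α and HIF-1β, lay 41.666 to 42.005 kb downstream of a start site. Their median midpoint was 0.042 kb from a start site of TMEM263. Peaks within 50 kb of CRY2 lay 29.431 to 42.369 kb away and were nearer to MAPK8IP1 and SLC35C1. CRY1 passed the test between the viruses with the block, a call that ended when any replicate was left out, and had no HIF peak within 10 kb. PER2 and PER3 had HIF-1α peaks at their start sites and did not pass it, which does not show that their RNA was unchanged. A link between peaks and RNA was not tested.

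BHLHE40 and BHLHE41 are E-box repressors of the same family. Within 50 kb, BHLHE40 had 33 peaks over the 7 lists, PER1 13 and BHLHE41 10. BHLHE40 (chr3:5021122-5027008, plus strand) had 320, 361 and 251 CPM in control libraries, 242, 434 and 525 CPM with HIF-1α and 258, 518 and 473 CPM with HIF-2α. Libraries 2 and 3 of both virus pools were above all control libraries, and library 1 of both was near the lowest control library. Against control cells BHLHE40 had log2 fold changes of 0.37 ± 0.35 with HIF-1α and 0.42 ± 0.35 with HIF-2α (edgeR adjusted p = 0.576 and 0.86). The 3 genes whose log2 CPM followed that of BHLHE40 most closely over the 9 libraries were BTN2A2, CFLAR and ZNF487, with a root mean square difference of 0.162, 0.164 and 0.18 after centring each gene, where the median gene stood at 0.612 and BHLHE40 itself varied with an SD of 0.455.

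BHLHE41 (chr12:26272963-26277970, minus strand) had 67.3, 48.1 and 33.9 CPM in control libraries, 58.2, 234 and 217 CPM with HIF-1α and 61.2, 77.5 and 29.3 CPM with HIF-2α. HIF-1α libraries 2 and 3 were far above every other library, and HIF-1α library 1 lay within the control range. Library 1 was also the HIF-1α library with the lowest HIF1A level, 171 CPM, and the part of that level in the result was not tested. The log2 fold change between HIF-1α and control cells was 1.77 ± 0.52 (edgeR adjusted p = 0.162), and 1.75 ± 0.53 with the block (adjusted p = 0.0645). DESeq2 made the call, at 1.74 (adjusted p = 0.0268), as did the block without replicate 1, at 2.49 (edgeR adjusted p = 0.0404). Between HIF-1α and HIF-2α cells it was 1.60 ± 0.52 (edgeR adjusted p = 0.226), with ratios of 0.951, 3.02 and 7.39 within replicate numbers 1 to 3, and 2.20 with the block without replicate 1 (adjusted p = 0.0338). HIF-2α and control cells overlapped, at 0.17 ± 0.51 (edgeR adjusted p = 0.97).

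At BHLHE40, all 7 lists had a peak upstream of the start site, with midpoints 0.472 to 1.054 kb from it, and all 7 had a peak downstream, with midpoints 3.629 to 6.917 kb from a start site. There were 6 separate sites within 50 kb, the outermost of them 46.5 kb downstream, and BHLHE40 was the nearest protein-coding gene to each. At BHLHE41, 6 of the 7 lists had a peak 0.056 to 0.832 kb upstream of a start site, overlapping introns of SSPN on the other strand. The list without it was HIF-2α in control cells. That list had its BHLHE41 peak 9.261 kb downstream of a start site and past the 3′ end of the gene, nearer to a start site of SSPN at 7.484 kb, where HIF-1β peaks of control and HIF-1α re-expressing cells also lay. HIF-2α thus had a peak at the BHLHE41 start site in both virus pools and at the downstream site in control cells, 1 library each, and the lists give no strength by which to compare them.

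Windows are shown for the BHLHE40 upstream site and for the upstream and downstream BHLHE41 sites, each centred on the median midpoint of the peaks there. At the BHLHE40 upstream site and the BHLHE41 downstream site that midpoint is the centre of the HIF-2α peak of control cells. At the BHLHE41 upstream site it is the centre of a HIF-1β peak, and the centres of the HIF-1α and HIF-2α peaks lie outside the window, nearer to the gene. The centre of the HIF-1α peak at the BHLHE40 upstream site also lies outside its window, further from the gene. The BHLHE40 stretch, chr3:5020313-5020612, held 1 HRE core near its 5′ edge and an AP-1 site at its 3′ edge. The BHLHE41 upstream stretch, chr12:26278485-26278784, held 1 HRE core and no E-box. Over the full width of its peaks that site held 18 HRE cores and 2 E-boxes. The downstream stretch, chr12:26267291-26267590, held 7 HRE cores, 4 of which are accounted for by 2 E-boxes. An AP-1 site was present within 150 bp of the midpoint at 27.5% of HIF-2α peaks of control cells and at 7.73% of HIF-1α peaks.
BHLHE40 upstream site: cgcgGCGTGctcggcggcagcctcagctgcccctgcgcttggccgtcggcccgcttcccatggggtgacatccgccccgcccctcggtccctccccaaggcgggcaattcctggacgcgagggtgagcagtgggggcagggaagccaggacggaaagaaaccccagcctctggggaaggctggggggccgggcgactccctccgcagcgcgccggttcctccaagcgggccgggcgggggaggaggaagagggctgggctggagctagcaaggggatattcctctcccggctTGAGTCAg
BHLHE41 upstream site: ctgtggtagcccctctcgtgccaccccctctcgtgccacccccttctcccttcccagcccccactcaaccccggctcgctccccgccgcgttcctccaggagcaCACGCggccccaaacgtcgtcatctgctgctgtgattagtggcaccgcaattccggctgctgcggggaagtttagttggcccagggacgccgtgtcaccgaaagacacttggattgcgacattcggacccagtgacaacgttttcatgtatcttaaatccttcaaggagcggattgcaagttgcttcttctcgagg
BHLHE41 downstream site: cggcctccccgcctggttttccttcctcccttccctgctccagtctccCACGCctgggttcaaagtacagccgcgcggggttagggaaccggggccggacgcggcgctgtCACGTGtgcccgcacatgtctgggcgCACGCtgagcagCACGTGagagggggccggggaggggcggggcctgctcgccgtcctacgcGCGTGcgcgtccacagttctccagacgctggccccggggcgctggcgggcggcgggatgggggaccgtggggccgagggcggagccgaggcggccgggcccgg

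DBP (chr19:49133287-49140636, minus strand), the output activator, was the scarcest of the clock genes. It had 34, 33 and 31 counts in control libraries (0.88, 0.939 and 0.808 CPM), 17, 62 and 186 counts with HIF-1α (0.417, 1.57 and 3.46 CPM) and 23, 24 and 16 counts with HIF-2α (0.554, 0.837 and 0.411 CPM). HIF-1α libraries 2 and 3 lay above all of the others and HIF-1α library 1 near the lowest. For DBP the log2 fold change between HIF-1α and control cells was 1.05 ± 0.65 (edgeR adjusted p = 0.386), and between HIF-1α and HIF-2α cells 1.60 ± 0.66 (adjusted p = 0.326). HIF-1β peaks lay 0.135 kb downstream of a start site in control cells and 0.468 kb upstream of one in HIF-1α re-expressing cells. No HIF-1α or HIF-2α peak lay within 10 kb.

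Over the 10 genes, 9 of the log2 fold changes between HIF-1α and control cells were above 0, with a median of 0.41 against 0.04 over all genes tested. None was called by edgeR without the block, as was true of all genes (0.0%), and 2 had an unadjusted p under 0.05 (19.4% of all genes). With the block none was called (7.96% of all genes) and 5 had an unadjusted p under 0.05 (33.2%), and DESeq2 called BHLHE41 (5.28%). Between HIF-2α and control cells, 6 were above 0 with a median of 0.05 against -0.02 over all genes. No clock gene was called by edgeR without (0.0%) or with the block (0.267%) or by DESeq2 (0.413%), and 0 and 2 had an unadjusted p under 0.05 without and with the block (5.89% and 14.5%). Between HIF-1α and HIF-2α cells, 7 were above 0 with a median of 0.38 against 0.02. None was called without the block (0.0492%) and 5 had an unadjusted p under 0.05 (13.6%). With the block 2 were called (5.93%), PER1 higher (4.54% of all genes) and CRY1 lower (1.38%), and 4 had an unadjusted p under 0.05 (24.3%). DESeq2 also called both (4.44% in either direction). Without overlap between libraries, 1 clock gene was higher (10.4% of all genes) and 1 lower (8.82%).

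**Figure D3:**
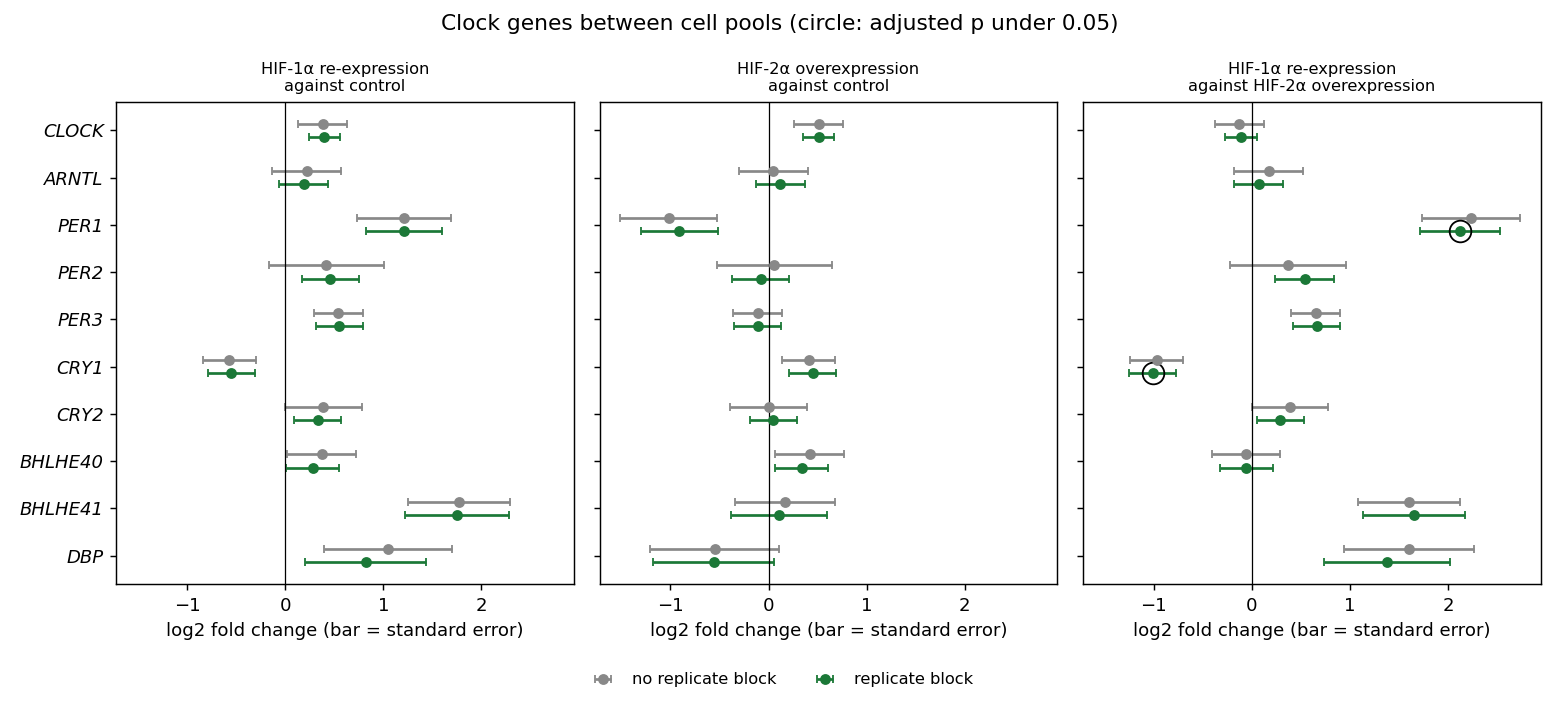
Log2 fold change of each clock gene (horizontal) with its standard error (bar) in the 3 comparisons, from the fit without the replicate block (grey) and with it (green). The circled points, PER1 at 2.12 and CRY1 at -1.01 between the HIF pools, are those with an adjusted p under 0.05.

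Of 19 other genes of the clock, 17 were tested. Without the block none was called in any comparison by edgeR. With the block, 1 was called higher and 0 lower between HIF-1α and control cells (5.41% and 2.55% of all genes), 0 between HIF-2α and control cells (0.267%), and 1 higher and 0 lower between the HIF pools (4.54% and 1.38%), which is near the share over all genes. The gene was RORA both times, a nuclear receptor that activates ARNTL. RORA had 1, 1 and 2 counts in control libraries, 26, 384 and 79 with HIF-1α and 5, 6 and 1 with HIF-2α. It passed the filter on low counts through the HIF-1α libraries, where it is high, so its values and calls are given as a description. The pooled 489 counts against 4, scaled for library totals, give a ratio of 103 with an exact 95% interval of 39.8 to 378 that covers counting error only, and library 2 alone held 384 of the 489 counts. Its adjusted p with the block (edgeR) was 0.0264 against control cells and 0.0107 against HIF-2α cells, and 0.149 and 0.0872 without it. A HIF-1α peak lay 0.312 kb from an internal RORA start site, and those cells had a HIF-1β peak 0.432 kb from it. Peaks of HIF-1α lay within 10 kb of 10 of the 19 other clock genes (34.6% of all genes), and of HIF-2α within 10 kb of 0, 1 and 3 of them in control, HIF-1α and HIF-2α cells (5.32%, 4.21% and 14.5%).

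The replicate number was also tested by edgeR with the pools accounted for. Of the 10 clock genes 1 was called, PER2 (adjusted p = 0.0192), against 15.4% of all genes, and 4 had an unadjusted p under 0.05, against 35.2% of all genes, so that the clock genes as a group stood near the share over all genes. PER2 averaged 5.87, 7.75 and 16.3 CPM over libraries 1, 2 and 3. CLOCK averaged 92.6, 102 and 68.4 CPM and CRY2 7.29, 9.74 and 14.2 CPM, with adjusted p values of 0.0637 and 0.0607. Of the 17 other clock genes, NPAS2, a paralogue of CLOCK, and NR1D1, a repressor of ARNTL also known as REV-ERBα, were called (adjusted p = 0.0187 and 0.0475). NPAS2 had 27.3, 39 and 11.3 CPM in library 1 of control, HIF-1α and HIF-2α cells and 7.91 to 12.6 CPM in libraries 2 and 3, and NR1D1 had 56.6, 33.1 and 23.4 CPM in library 1 and 6.5 to 22.6 CPM in the others. PER2 was thus highest in library 3 of each pool and NPAS2 and NR1D1 in library 1. What the numbers stand for is not given in the sources used here.

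**Figure D4:**
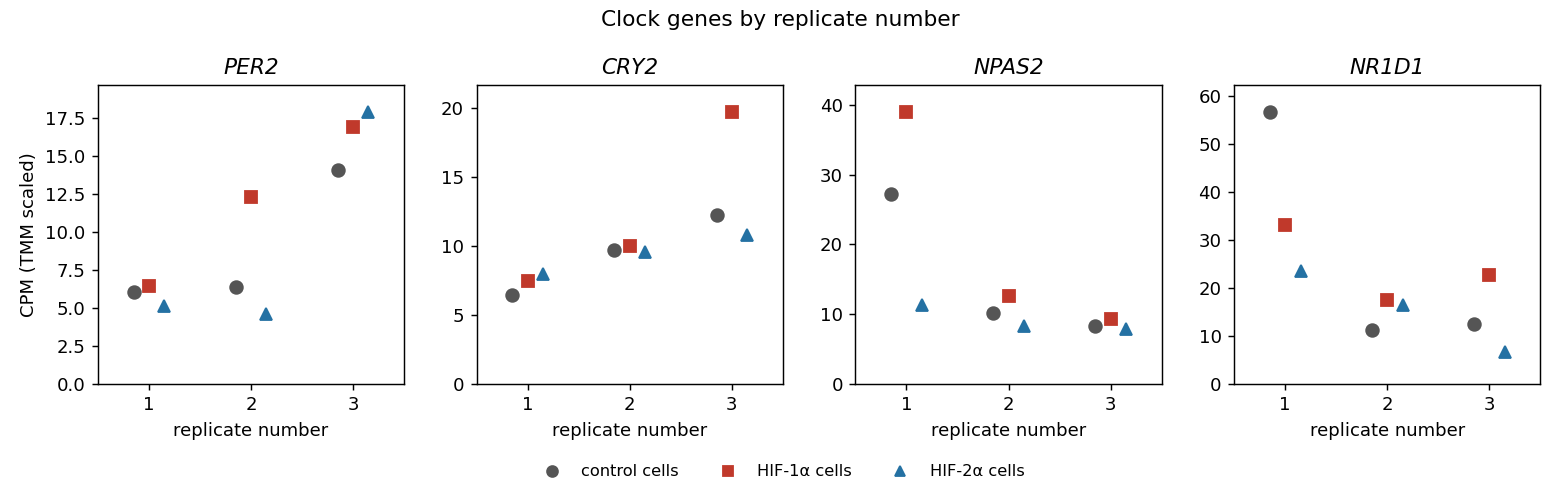
RNA of PER2, CRY2, NPAS2 and NR1D1 in TMM-scaled CPM (vertical, from 0) by replicate number (horizontal), with a point per library and a colour and shape per pool. PER2 and CRY2 were highest in library 3 of each pool, and NPAS2 and NR1D1 in library 1.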

How the data were processed

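RNA-seq counts and ChIP-seq peak positions from 786-O pools were used, with groups and replicate numbers from the labels. The deposited RNA table holds whole-number counts per gene symbol, which the authors made from directional poly(A)+ libraries with TopHat2 2.0.8b, Bowtie 1.0.0 and HTSeq 0.5.4p3. The strand setting of the counting is not given in the sources used here, and 8 of the 10 genes share exon bases with an antisense gene, all but PER1 and CRY2, from which reads then cannot be told apart. PER1 shares exons with a read-through model on its own strand. The deposited peak lists hold GRCh37 positions without score or depth, which the authors obtained from BWA alignments by keeping peaks that T-PIC and MACS both called, 2500 bp wide. Input libraries were not analysed here.

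Counts were fitted in R 4.3.3 with edgeR 4.0.16 (TMM, filterByExpr, quasi-likelihood test, all 9 libraries, pool as the term, common dispersion 0.141, or 0.0603 with the block). Standard errors were derived from this test, as the absolute log2 fold change divided by the square root of its F value. DESeq2 1.42.0, its size factors in edgeR, no filter, 2 groups alone, the replicate block and left-out libraries were alternatives. For the comparisons of the pools, DESeq2 was fitted with pool as the only term. The numbers pair the libraries because all 9 same-number correlations exceed 0.1, although no source names what they share. The median log2 fold change over all genes in the 3 comparisons was -0.02 to 0.04 with TMM and -0.03 to 0.01 with DESeq2 size factors. Chi-square per degree of freedom between libraries of a pool was 155 to 399, so that no library was a repeat of another. The fits were tested on simulated data. Start sites and exons came from GENCODE lifted to GRCh37, with older symbols matched through RefSeq names. Sequences came from GRCh37 (pysam 0.24.0) and motifs from exact matches (Python 3.11.15). The genes, lists and tests were chosen with earlier results of these data known. The text names all 10 members, HIF1A, EPAS1, other clock genes past a threshold, and the 3 genes most like BHLHE40. DBP had 16 to 186 counts a library, and every other member had at least 96.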

Additional observations from a re-analysis of the deposited data

How the results depend on the processing

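Genes called between HIF-1α and control cells, HIF-2α and control cells, and the HIF pools numbered 0, 0 and 7. They numbered 1132, 38 and 843 with the replicate block, 753, 65 and 649 by DESeq2, 0, 1 and 82 with no filter, and 0, 2 and 0 with only the 2 groups compared. Leaving out each library in turn gave 0 between HIF-1α and control cells, 0 to 2 between HIF-2α and control cells (2 without HIF-1α replicate 2) and 0 to 29 between the HIF pools (29 without HIF-1α replicate 1 and 14 without control replicate 3). With the block and without replicate 1, 2 or 3 the counts were 295, 0 and 1, then 30, 9 and 7, then 334, 386 and 265 in the same order of comparisons. The cause was not tested.

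Of the clock genes, the 2 called with the block between the HIF pools became 2 (PER1 and BHLHE41), 0 and 0 without replicates 1, 2 and 3. Between HIF-1α and control cells 1 was called with the block without replicate 1 and 1 by DESeq2, BHLHE41 both times, and DESeq2 called 2 between the HIF pools. No clock gene was called when a single library, control replicate 3 included, was left out of the fit without the block. Beside PER1 and CRY1 the block changed no call of a clock gene. For replicate number, DESeq2's likelihood ratio test called 3963 genes and 3 clock genes.

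Members with a HIF-2α peak in control cells numbered 1 at 5 kb (3.91% of all genes) or with 1 start site per gene, 2 at 10 kb and by the nearest edge, and 3 at 50 kb (12.1%). At 50 kb, 9 had a HIF-1α peak (50.6% of all genes) and 5 a HIF-1β peak in HIF-2α cells (30.1%). A stricter peak threshold was not run, because the lists hold no score.

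Over all members and settings, 469 log2 fold changes kept their direction and side of the threshold, 8 newly passed it and 33 turned direction, all of values that were not called. With the block, PER2 stood at -0.08 and CRY2 at 0.05 between HIF-2α and control cells. Ranges over left-out libraries that crossed 0 were as follows. Between HIF-1α and control cells, ARNTL ran from -0.22 to 0.5 and CRY2 from -0.12 to 0.64. Between HIF-2α and control cells, ARNTL ran from -0.1 to 0.34, PER2 from -0.86 to 0.57, PER3 from -0.27 to 0, CRY2 from -0.22 to 0.23 and BHLHE41 from -0.14 to 0.49. Between the HIF pools, CLOCK ran from -0.32 to 0.03, ARNTL from -0.27 to 0.38, CRY2 from -0.11 to 0.64 and BHLHE40 from -0.34 to 0.19. With the block, leaving out replicate 1 turned ARNTL to -0.29 between the HIF pools and PER2 to 0 between HIF-2α and control cells. Leaving out replicate 2 turned ARNTL to -0.02, CRY2 to 0.07 and BHLHE41 to -0.17 between HIF-2α and control cells, and BHLHE40 to 0.04 between the HIF pools. Leaving out replicate 3 turned BHLHE40 to -0.1 and DBP to -0.09 between HIF-1α and control cells, ARNTL to -0.01, PER2 to -0.34 and CRY2 to 0.13 between HIF-2α and control cells, and CRY2 to -0.02 between the HIF pools.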

Other observations

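Some clock genes outside the 10 had uneven values that were noticed after the values were seen. USP2, a deubiquitinase under clock control, had 24, 89 and 149 counts in control libraries 1 to 3, 54, 189 and 584 with HIF-1α and 21, 48 and 12 with HIF-2α, and was not called in any comparison of the pools by edgeR. HLF, an output factor related to DBP, had 2.28, 1.65 and 2.53 CPM in control libraries and 1.18, 0.314 and 0.925 CPM with HIF-2α, without overlap (5.19% of all genes), at a log2 fold change of -1.40 ± 0.51 (edgeR adjusted p = 0.806).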
